A study of Mus musculus with 6 samples.

Results

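The mural cell marker genes examined here were *Rgs5*, *Cspg4*, *Kcnj8*, *Abcc9*, *Mcam*, *Des*, *Higd1b* and *Ndufa4l2*, which were taken by gene name from the deposited expression table and make up 8 of its 34745 genes. RNA-seq was performed on cardiac fibroblasts from the left ventricle of KDM5B-knockout mice (3 libraries labelled KO) and of their wild-type littermates (3 libraries labelled WT). All hearts had undergone myocardial infarction (MI), produced by tying off a coronary artery permanently, the cells were taken on Day 7 after MI, and the mice were males of 8 to 10 weeks. The knockout is a CRISPR/Cas9 deletion of the part of *Kdm5b* that encodes the JmjC domain and is not driven by a cell type-specific promoter, and there was no group without MI. The labels do not say whether the 3 libraries of a label came from separate animals, so the p-values measure only the spread between these libraries.

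Mural cells wrap the outside of blood vessels. Pericytes lie on capillaries and share the basement membrane with the endothelium, and smooth muscle cells surround arteries and veins and set their width. Both are recruited to growing vessels by PDGF-B from the endothelium acting on the receptor PDGFRB. In the heart, the pericyte potassium channel built from the products of *Kcnj8* and *Abcc9* couples the energy state of the cell to membrane voltage, whereas several other mural markers, among them *Cspg4* and *Pdgfrb*, are also made by other mesenchymal cells, and *Mcam* is also made by endothelial cells.

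Between 12025403 and 15329427 counts per library fell on genes. *Kdm5b* itself had 98.1, 107 and 105 CPM (counts relative to library size, scaled by TMM) in the KO-labelled libraries and 108, 129 and 123 CPM in the WT-labelled ones. The adjusted p of 0.0574 from edgeR's quasi-likelihood test missed the threshold, so the groups are named by their labels. A count over the whole gene also reads transcript outside the deleted part. The fibroblast label was checked on its defining markers: *Col1a1* stood at 2417 ± 149 FPKM (SD, n = 3) in the WT-labelled libraries and *Pdgfra* at 15.1 ± 0.941 FPKM. Other cell types were present as well in the same libraries, with *Myh6* of cardiomyocytes at 42.3 ± 0.849 FPKM and *Adgre1* of macrophages at 46.0 ± 2.02 FPKM. Of the endothelium, *Pecam1* stood there at 4.35 ± 0.383 FPKM and *Cdh5* at 18.8 ± 0.919 FPKM, the latter above *Pdgfra*. In the KO-labelled libraries the means were 70.2 FPKM for *Pecam1* and 95.5 FPKM for *Cdh5*, both above *Pdgfra* at 12.4 FPKM. Not every endothelial marker exceeded *Pdgfra* there, with *Vwf* at 1.21 FPKM, and *Col1a1* stood at 1819 FPKM. These are bulk samples, in which fewer cells of a type and less RNA per cell cannot be told apart.

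The mural marker genes did not move as 1 group. *Mcam* and *Abcc9* rose in the KO-labelled libraries, by 2.61-fold and 1.79-fold, whereas *Cspg4* and *Des* fell to 0.741 and 0.748 of their WT level. *Rgs5* and *Ndufa4l2* were lower without passing the threshold, *Kcnj8* was too low to be tested, and *Higd1b* had a count of 0 in every library. Thus 6 of the 8 genes passed the filter on low counts, and 4 of these passed an adjusted p under 0.05, with 2 higher and 2 lower. Of all 14084 genes tested, 30.2% passed, 17.7% higher and 12.5% lower. In all 6 tested members the CPM of the labels did not overlap, with 2 members above and 4 below in KO, which held for 47% of all genes tested (24.7% above and 22.4% below). The median log2 fold change of the 6 was -0.37, beside -0.02 over all genes tested.

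**Figure D1:**
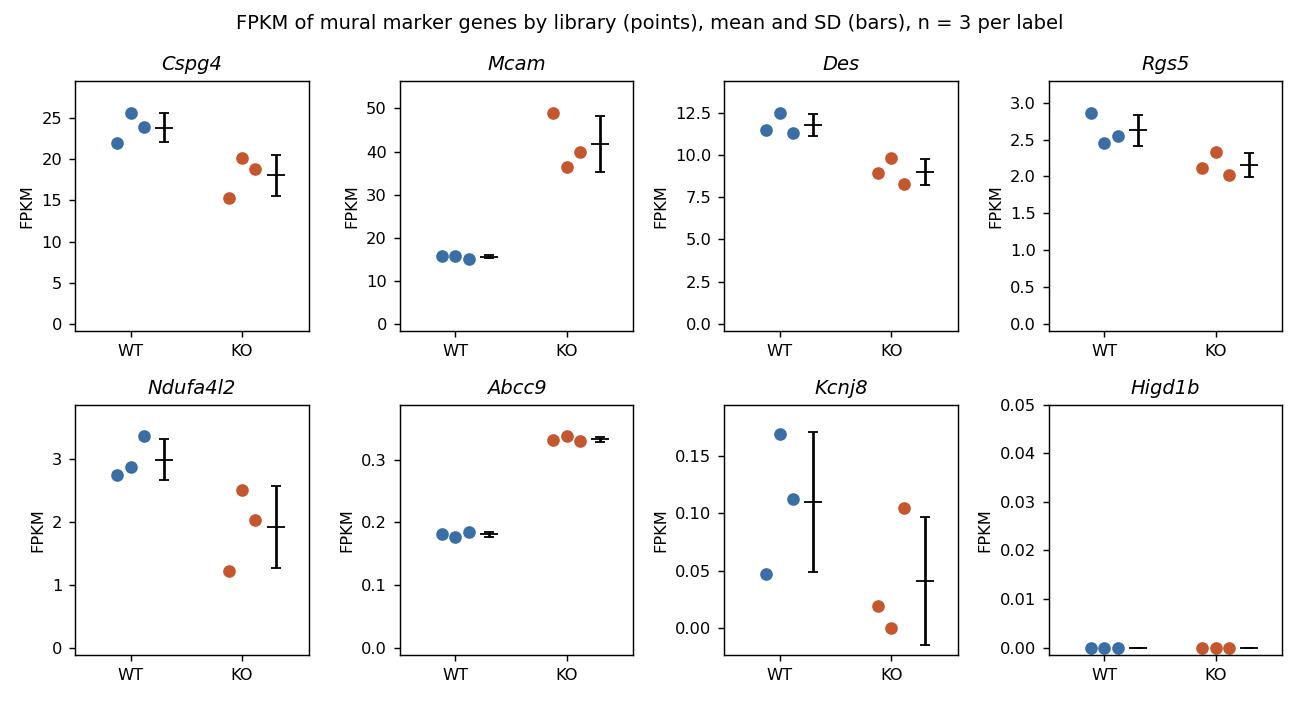
FPKM (y axis, linear, separate scale for each gene) of the 8 mural marker genes in each library, with WT-labelled libraries in blue and KO-labelled libraries in orange. The black bars give the mean and SD of 3 libraries. *Mcam* and *Abcc9* lie higher in the KO-labelled libraries without overlap, *Cspg4*, *Des*, *Rgs5* and *Ndufa4l2* lie lower, and *Higd1b* is at 0 throughout.

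The levels of the 8 genes, compared per length in FPKM, spanned a wide range. In the WT-labelled libraries the order was *Cspg4* (23.8 ± 1.81 FPKM, SD, n = 3), *Mcam* (15.6 ± 0.375), *Des* (11.8 ± 0.650), *Ndufa4l2* (2.99 ± 0.328), *Rgs5* (2.63 ± 0.212), *Abcc9* (0.181 ± 0.00404), *Kcnj8* (0.110 ± 0.0609) and *Higd1b* (0). Only *Ndufa4l2* and *Rgs5* overlapped among neighbours in this order. In the KO-labelled libraries *Mcam* came first at 41.8 ± 6.48 FPKM, ahead of *Cspg4* at 18.1 ± 2.49 FPKM and *Des* at 9.01 ± 0.761 FPKM. There, *Rgs5* and *Ndufa4l2* overlapped, and so did *Kcnj8* and *Higd1b*. Among the 20854 genes with any count, the WT level of *Cspg4* was above 91.4% of genes and that of *Rgs5*, which is among the most abundant transcripts of pericytes, above 58.7%. *Kcnj8* and *Higd1b* were near or at 0, and the list is used here as a set of genes and not as a measure of mural cells.

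The sum of the 8 genes ran from 55.2 to 59.6 FPKM in the WT-labelled libraries and from 71.3 to 76.9 FPKM in the KO-labelled ones. Without *Mcam* the order turned, with 39.3 to 43.8 FPKM for the other 7 genes in the WT-labelled and 27.9 to 35.1 FPKM in the KO-labelled libraries. The summed level of the 8 genes was thus higher in the KO-labelled libraries only when *Mcam* was included.

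*Mcam* (ENSMUSG00000032135, mm10, chromosome 9 from 44134469 to 44142727, plus strand) encodes CD146, an adhesion molecule of the immunoglobulin superfamily found on pericytes, smooth muscle and endothelium. It had 257, 193 and 209 CPM in the KO-labelled libraries and 85.1, 85.4 and 81.8 CPM in the WT-labelled ones. Every KO-labelled library was above every WT-labelled one, and KO replicate 1 was the highest. edgeR gave a log2 fold change of 1.38 with a standard error of 0.10 and an adjusted p of 4.3e-05, with a 95% interval from 1.16 to 1.61. By exact two-sided permutation p was 0.1, the smallest that this design of 3 against 3 can reach, for *Mcam* and for each of the other 5 tested members.

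Endothelial marker genes moved with *Mcam*. Of the 15 endothelial genes 12 rose and 0 fell, beside 17.7% higher and 12.5% lower among all genes tested. Their median log2 fold change was 2.31, and *Kdr*, the main VEGF receptor, rose most (4.23). Their summed level was 405, 301 and 344 FPKM in the KO-labelled libraries and between 107.5 and 107.9 FPKM in the WT-labelled ones. KO replicate 1 was highest and KO replicate 2 lowest both in this sum and in *Mcam*. The part of endothelial RNA in the *Mcam* result was not tested. The log2 ratio of *Mcam* to *Pecam1* counts within a library was -1.49, -1.41 and -1.60 in the KO-labelled and between 1.0 and 1.2 in the WT-labelled libraries, beside log2 fold changes of 3.98 for *Pecam1* and 1.38 for *Mcam* (difference of the ratios -2.59, exact permutation p = 0.1, 0.3 after adjustment over 6 ratios). The tested gene most like *Mcam* across the 6 libraries was *Pcdh12*, a protocadherin of endothelial junctions, whose log2 fold change was 4.02.

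The promoter window of *Mcam* was read because it showed the largest change among the members, and that of *Cspg4* because it was the most abundant member that fell. Both are RefSeq windows on GRCm38.p6, from 250 bases before to 50 after the RefSeq start, on the plus strand, at chr9:44134408-44134707 and chr9:56864854-56865153. The RefSeq start of *Mcam* lies inside the gene as listed, which begins at 44134469, and so does most of its window. Capitals mark the CG dinucleotides.
Mcam: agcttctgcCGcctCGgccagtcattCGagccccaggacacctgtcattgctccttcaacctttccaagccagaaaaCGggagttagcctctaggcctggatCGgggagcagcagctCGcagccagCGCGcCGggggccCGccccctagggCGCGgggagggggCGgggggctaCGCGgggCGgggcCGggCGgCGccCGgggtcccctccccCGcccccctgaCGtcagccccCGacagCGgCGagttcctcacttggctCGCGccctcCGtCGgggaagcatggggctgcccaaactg
Cspg4: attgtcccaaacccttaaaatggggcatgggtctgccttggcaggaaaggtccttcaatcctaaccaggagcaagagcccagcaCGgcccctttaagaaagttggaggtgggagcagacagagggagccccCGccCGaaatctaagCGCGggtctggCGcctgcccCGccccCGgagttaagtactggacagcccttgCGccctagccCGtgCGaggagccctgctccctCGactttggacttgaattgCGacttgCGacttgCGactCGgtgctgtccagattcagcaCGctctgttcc
The *Mcam* window held 29 CG dinucleotides and 72.7% G and C, the *Cspg4* window 17 and 60.0%, and the median over 32851 windows was 7 and 52.7%. The first 17 bases of *Mcam* also belong to *Gm10687*, a gene on the other strand. *Gm10687*, looked at after its values were seen, had 30, 11 and 24 counts in the KO-labelled and 3, 1 and 3 counts in the WT-labelled libraries, without overlap (adjusted p = 0.00459 from edgeR). *Mcam* had 3135, 2576 and 3245 counts in the KO-labelled and 1216, 1252 and 1150 counts in the WT-labelled libraries.

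*Cspg4* (ENSMUSG00000032911, chromosome 9 from 56865104 to 56899870) encodes NG2, a membrane proteoglycan that binds PDGF and marks pericytes, and also glial progenitors. It had 121, 161 and 149 CPM in the KO-labelled libraries and 179, 210 and 195 CPM in the WT-labelled ones. The highest KO-labelled library lay below the lowest WT-labelled one, with KO replicate 1 the lowest. edgeR gave a log2 fold change of -0.43 with a standard error of 0.10, a 95% interval from -0.67 to -0.19 and an adjusted p of 0.0156. Without WT replicate 2 it was -0.38 with an adjusted p of 0.0548, which ends the call. Its adjusted p ranged from 4.7e-04 to 0.685 across the alternatives. Markers of glia were near the floor: 2 of the 6 glial genes could be tested and neither passed, their sum was 0.979 to 1.32 FPKM in the KO-labelled and 1.07 to 1.25 FPKM in the WT-labelled libraries, and *Sox10* had at most 12 counts.

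The log2 ratio of *Cspg4* to *Pdgfrb*, the receptor that marks mural cells and fibroblasts alike, was -1.83, -1.51 and -1.60 in the KO-labelled and -1.76, -1.49 and -1.65 in the WT-labelled libraries. The labels overlapped, and the difference was -0.02 (exact two-sided permutation p = 0.9). *Pdgfrb* itself fell by 0.42 on the log2 scale (adjusted p = 2.6e-04 from edgeR), from 77.3 ± 1.60 FPKM (SD, n = 3) to 58.9 ± 1.75 FPKM.

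*Des* (ENSMUSG00000026208, chromosome 1 from 75360329 to 75368579) encodes desmin, the intermediate filament of muscle cells and pericytes. It had 38.3, 42.5 and 35.7 CPM in the KO-labelled libraries and 50.6, 55.3 and 49.8 CPM in the WT-labelled ones, again without overlap. edgeR gave a log2 fold change of -0.42 with a standard error of 0.08, a 95% interval from -0.61 to -0.23 and an adjusted p of 0.00627, and the call held in each fit that left out a library. Against vimentin, the filament of mesenchymal cells, the log2 ratio of *Des* to *Vim* was lower in the KO-labelled libraries by 0.29, from -4.85 to -5.03 there and from -4.58 to -4.70 in the WT-labelled ones (exact permutation p = 0.1). Cardiomyocytes also make desmin. Of 12 cardiomyocyte genes 7 fell and 0 rose, beside 12.5% lower and 17.7% higher among all genes tested. Their median log2 fold change was -0.38, with *Myh6* the largest fall (-0.45). Their sum ran from 372 to 414 FPKM in the KO-labelled against 495 to 522 FPKM in the WT-labelled libraries. The part of cardiomyocyte RNA in the *Des* result was not tested.

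*Rgs5* (ENSMUSG00000026678, chromosome 1 from 169655501 to 169695813) encodes a GTPase-activating protein that shortens signaling of vasoconstrictor receptors in pericytes and arterial smooth muscle. It had 9.66, 10.8 and 9.28 CPM in the KO-labelled libraries and 13.4, 11.6 and 12.02 CPM in the WT-labelled ones. The labels did not overlap, but the gap between KO replicate 2 and WT replicate 2 was small. The log2 fold change was -0.32 (standard error 0.12, 95% interval from -0.58 to -0.05) and did not pass the threshold over all genes (adjusted p = 0.0727 from edgeR). The log2 ratio of *Rgs5* to its close relative *Rgs4* ran from -0.49 to -0.75 in the KO-labelled and from -0.46 to -0.81 in the WT-labelled libraries (difference -0.03, exact permutation p = 0.9).

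Markers of other cell types in these libraries moved beside *Cspg4*, *Des* and *Rgs5*. Their median log2 fold changes were -0.39 for 10 fibroblast genes and -0.40 for the 9 tested macrophage genes. All 10 fibroblast genes fell, and of the macrophage genes 6 fell and 1, *Cd68*, rose (1.38). Among all genes tested, 12.5% were lower and 17.7% higher. *Tcf21*, a transcription factor of cardiac fibroblasts, fell by 0.48 on the log2 scale, and *C1qb* of macrophages by 0.60. The summed fibroblast level ran from 2702 to 3128 FPKM in the KO-labelled and from 3675 to 3951 FPKM in the WT-labelled libraries, and its part in the result for *Cspg4* was not tested. The values of the 3 mural genes depended on the scaling: with the libraries scaled so that the median ratio of the cardiomyocyte and macrophage markers between labels is 1, which shifts all genes by 0.39 at the median, the values were -0.05 for *Cspg4*, -0.04 for *Des* and 0.068 for *Rgs5*, and none passed. The same scaling left 0 of the 10 fibroblast genes lower past the threshold, at a median of -0.0051, where 52 of all 14084 genes fell.

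**Figure D2:**
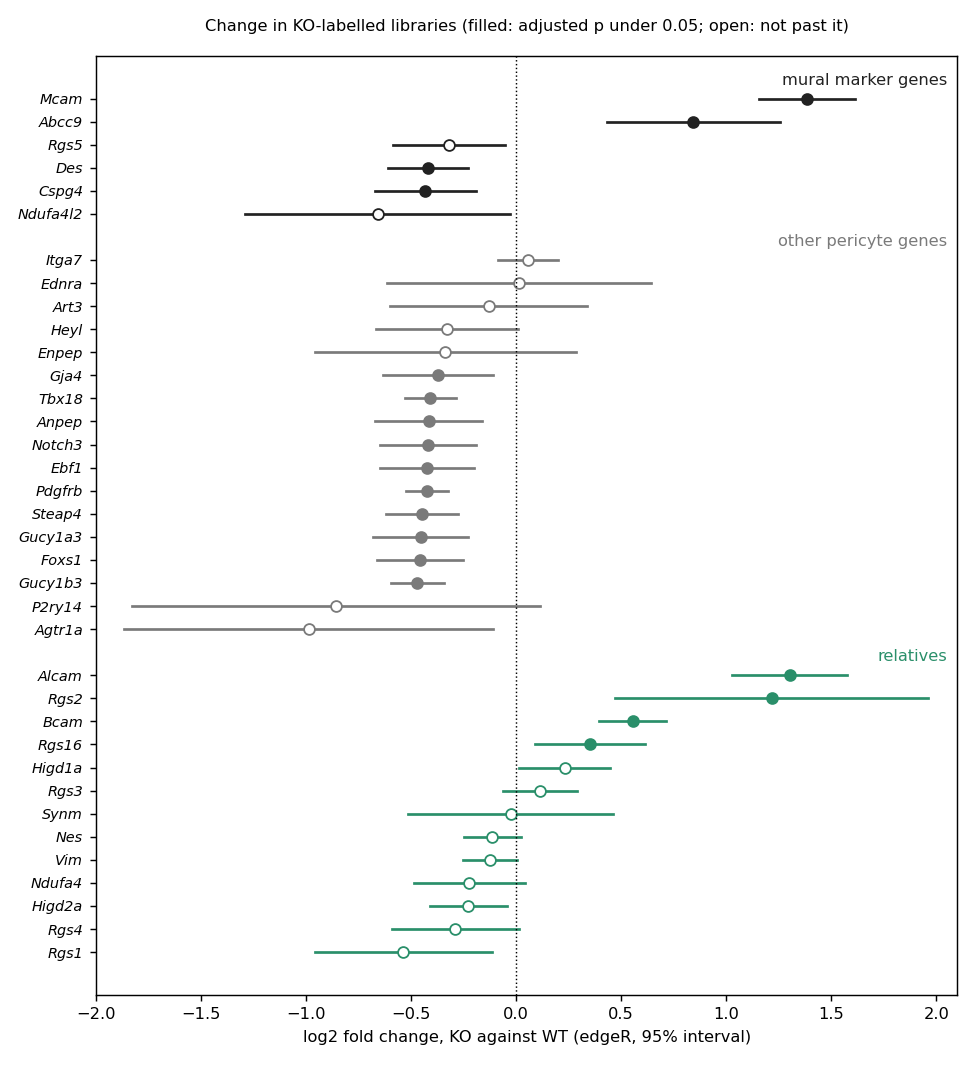
Log2 fold changes of the KO-labelled against the WT-labelled libraries (x axis) with 95% intervals from edgeR for the tested mural marker genes (black), other pericyte genes (grey) and relatives of the members (green). Filled points passed an adjusted p under 0.05. *Mcam* and *Abcc9* lie to the right of 0, and the 10 filled grey points lie between -0.47 and -0.37.

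*Kcnj8* and *Abcc9* encode the pore (Kir6.1) and the sulfonylurea receptor (SUR2) of the vascular ATP-sensitive potassium channel, which needs both to work. They lie next to each other on chromosome 6, both on the minus strand, with 16247 bases and 0 listed genes between *Kcnj8* (ENSMUSG00000030247, 142564837 to 142571614) and *Abcc9* (ENSMUSG00000030249, 142587862 to 142702315). Their RefSeq promoter windows on GRCm38.p6, on the minus strand at chr6:142571565-142571864 and chr6:142702225-142702524, are shown because the pair encode subunits of 1 channel. Capitals mark TGGGAA, the core of the motif bound by RBPJ, the DNA-binding partner of Notch receptors.
Kcnj8: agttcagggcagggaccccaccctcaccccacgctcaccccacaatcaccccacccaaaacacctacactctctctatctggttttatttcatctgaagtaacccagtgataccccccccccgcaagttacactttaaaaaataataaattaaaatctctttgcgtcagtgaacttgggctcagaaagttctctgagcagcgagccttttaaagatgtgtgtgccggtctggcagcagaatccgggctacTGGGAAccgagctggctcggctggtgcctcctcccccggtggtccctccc
Abcc9: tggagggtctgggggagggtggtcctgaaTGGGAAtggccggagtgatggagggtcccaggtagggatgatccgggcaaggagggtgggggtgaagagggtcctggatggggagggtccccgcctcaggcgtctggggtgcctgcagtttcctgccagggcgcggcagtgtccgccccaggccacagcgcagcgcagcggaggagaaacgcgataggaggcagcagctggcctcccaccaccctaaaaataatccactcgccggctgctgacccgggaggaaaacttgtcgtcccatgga
In *Kcnj8* the letters begin at the RefSeq start itself, and in *Abcc9* they lie from 221 to 216 bases before it. The RefSeq start of *Abcc9* lies inside the gene as listed, which on this strand begins at 142702315.

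*Abcc9* had 41, 46 and 52 counts in the KO-labelled libraries and 27, 27 and 27 counts in the WT-labelled ones, or 3.36, 3.45 and 3.35 CPM against 1.89, 1.84 and 1.92 CPM. The labels did not overlap. Within each label the CPM varied less than counting noise alone gives at such counts, so this spread is no measure of precision. edgeR gave a log2 fold change of 0.84 with a standard error of 0.18, a 95% interval from 0.43 to 1.25 and an adjusted p of 0.00887. With DESeq2 the value was 0.85 and its adjusted p of 0.0564 missed the threshold. Across the alternatives its adjusted p ranged from 6.2e-04 to 0.0564. The level remained low, at 0.333 ± 0.00385 FPKM (SD, n = 3) in the KO-labelled and 0.181 ± 0.00404 FPKM in the WT-labelled libraries. The gene most like *Abcc9* was *Erc1* (log2 fold change 0.78).

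*Kcnj8* had 1, 0 and 7 counts in the KO-labelled libraries and 3, 11 and 7 counts in the WT-labelled ones. The labels overlapped, since KO replicate 3 had as many counts as WT replicate 3 and more than WT replicate 1. Summed over libraries these were 8 of 40619921 counts and 21 of 43556774 counts, too few for the filter, and an exact two-sided permutation test of the CPM gave p = 0.2. Without the filter edgeR gave a log2 fold change of -1.32 with a standard error of 0.90 and an adjusted p of 0.365, so a fall was not detectable at this depth. The log2 ratio of *Kcnj8* to *Abcc9* was -4.79, -6.54 and -2.81 in the KO-labelled and -2.97, -1.26 and -1.87 in the WT-labelled libraries (difference -2.68, exact permutation p = 0.2). Without KO replicate 2 the difference was -1.76, and it ranged to -3.63 when other libraries were left out. With FPKM + 0.1 in place of counts it was -1.22 (exact permutation p = 0.1), so its size is uncertain. The other channel genes of this kind, *Kcnj11* and *Abcc8*, had at most 5 and 16 counts in any library and were not tested.

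*Higd1b* (ENSMUSG00000020928, chromosome 11 from 102835849 to 102838040), which encodes a small mitochondrial protein of the HIG1 family and is a marker of lung and heart pericytes, had a count of 0 in each of the 6 libraries. A count of 0 allows up to 3 counts, or 0.193 CPM in the deepest and 0.246 CPM in the shallowest library. Its relatives *Higd1a* and *Higd2a* were well counted, with log2 fold changes of 0.23 and -0.23 that did not pass (adjusted p = 0.0988 and 0.0661 from edgeR). Other genes in which pericytes or smooth muscle stand out were at 0 in all libraries as well, namely *Vtn*, the pericyte source of vitronectin, and *Rergl*. So was *Cd163* of the macrophage list, although other macrophage genes were abundant, so a count of 0 is not read here as absence of a cell type. *Cox4i2*, a subunit isoform of cytochrome c oxidase found in pericytes, had between 7 and 13 counts.

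*Ndufa4l2* (ENSMUSG00000040280, chromosome 10 from 127514939 to 127517152) encodes a mitochondrial protein related to NDUFA4 that is induced by hypoxia and is high in pericytes. It had 14, 32 and 30 counts in the KO-labelled libraries and 38, 41 and 46 counts in the WT-labelled ones, or 1.15, 2.40 and 1.93 CPM against 2.66, 2.80 and 3.27 CPM. KO replicate 1 was the lowest and the labels did not overlap. The log2 fold change was -0.66 (standard error 0.27, 95% interval from -1.29 to -0.03) and did not pass (adjusted p = 0.108 from edgeR), and without KO replicate 1 it was -0.42. The last 30 bases of the gene overlap *Shmt2* on the other strand, which had from 5847 to 6992 counts, and the counts of *Ndufa4l2* were 0.223% to 0.704% of these. Whether reads were counted by strand is not given in the sources used here, so the count is uncertain.

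Relative to *Ndufa4*, the log2 ratio of *Ndufa4l2* was -5.98, -4.74 and -4.88 in the KO-labelled and -5.03, -4.69 and -4.39 in the WT-labelled libraries, which overlapped (difference -0.50, exact permutation p = 0.4). Without KO replicate 1 the difference was -0.11. *Ndufa4* itself had a log2 fold change of -0.22 (adjusted p = 0.183 from edgeR). Other hypoxia-inducible genes moved in both directions, with 7 of 16 rising and 4 falling (17.7% and 12.5% of all genes tested), at a median log2 fold change of 0.29. The median was 0.13 without WT replicate 1 and 0.19 without KO replicate 3. Under the marker scaling 9 rose and 1 fell, where 8380 of all 14084 genes rose and 52 fell. *Egln3*, a prolyl hydroxylase that marks HIF proteins for destruction, rose most (1.41), and the adenylate kinase gene *Ak4* fell most (-2.19). *Ak4* had 71, 84 and 126 counts in the KO-labelled libraries against 563, 651 and 130 in the WT-labelled ones, so WT replicate 3 lay close to the KO-labelled libraries.

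**Figure D3:**
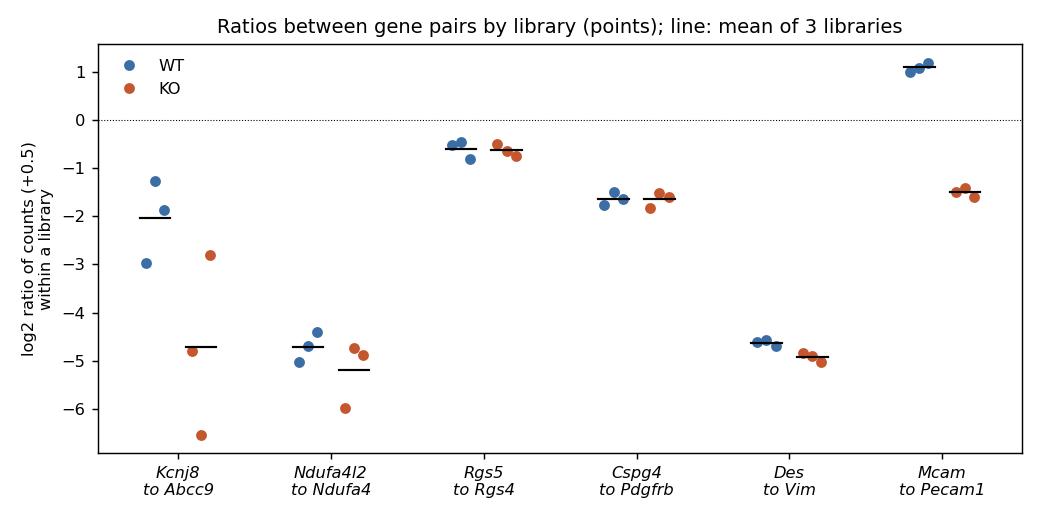
Log2 ratio of the counts of 2 genes within a library, each with 0.5 added (y axis), for 6 gene pairs, in WT-labelled (blue) and KO-labelled (orange) libraries, with the mean of 3 libraries as a line. The labels are apart for *Mcam* to *Pecam1* and for *Des* to *Vim* and overlap for the other pairs.

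Beyond the members, 21 other pericyte genes were read, from the PDGF receptor *Pdgfrb* and the receptor *Notch3* to the nitric oxide-sensing guanylate cyclase. Of the 17 that could be tested, 10 fell and 0 rose, at a median log2 fold change of -0.42, beside 12.5% lower among all genes tested. The largest fall past the threshold was that of *Gucy1b3*, the beta subunit of the cyclase (-0.47, adjusted p = 5.1e-04 from edgeR), and its partner subunit *Gucy1a3*, named after its values were seen, stood at -0.45. The summed level of the 21 genes was 151 to 165 FPKM in the KO-labelled and 196 to 203 FPKM in the WT-labelled libraries. With the marker scaling described for *Cspg4*, which moves all genes up, 0 of the list fell past the threshold and 1 rose. Under it 52 of all 14084 genes fell and 8380 rose.

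Of 17 contractile genes of smooth muscle, 16 were tested, 6 fell and 2 rose, with a median log2 fold change of -0.45, beside 12.5% lower and 17.7% higher among all genes tested. Under the marker scaling 1 fell and 3 rose, at a median of -0.06, where 52 of all 14084 genes fell and 8380 rose. Without KO replicate 3 it was 4 that fell. *Synpo2*, an actin-binding protein, fell most (-1.59), from 603, 616 and 303 counts to 115, 188 and 180 counts, with WT replicate 3 apart from the other WT-labelled libraries, and *Sncg*, which encodes gamma-synuclein, rose most (4.75), from 7, 10 and 12 counts to 248, 190 and 319 counts. *Myh11*, the smooth muscle myosin that best separates these cells from myofibroblasts, had 23 to 52 counts in any library and did not pass (-0.40, adjusted p = 0.205 from edgeR), and it was named after its values were seen. *Acta2*, likewise, is also made by myofibroblasts and had a log2 fold change of -0.37 (adjusted p = 0.00476).

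Of 12 genes of the signals that recruit mural cells, 6 rose and 4 fell, beside 17.7% and 12.5% of all genes tested. Under the marker scaling 7 rose and 0 fell, where 8380 of all 14084 genes rose and 52 fell. *S1pr1*, the endothelial receptor for sphingosine-1-phosphate, rose most (log2 fold change 2.47), and *Pdgfrb* fell most. The ligand gene *Pdgfb*, named after its values were seen, rose by 0.49 on the log2 scale (adjusted p = 0.0013 from edgeR).

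Of 17 relatives of the members, 13 were tested, 4 rose and 0 fell. Among all genes tested, 17.7% were called higher and 12.5% lower (30.2% in either direction). The 4 were *Alcam* (log2 fold change 1.30), an adhesion molecule related to *Mcam*; *Rgs2* (1.22) and *Rgs16* (0.35), regulators of G protein signaling related to *Rgs5*; and *Bcam* (0.56), the Lutheran antigen. The log2 fold changes of *Rgs1* (-0.54), *Rgs3* (0.11), *Rgs4* (-0.29), *Vim* (-0.12), *Nes* (-0.11) and *Synm* (-0.03) did not pass. The counts depended on the setting. The replicate block gave 3 rising and 1 falling, and leaving out KO replicate 2 gave 4 rising and 1 falling. Leaving out WT replicate 1 or WT replicate 2 gave 2 rising and 0 falling, and leaving out WT replicate 3 gave 2 rising and 1 falling. Upper quartile normalization gave 3 rising and 2 falling. The marker scaling gave 8 rising and 0 falling, where 8380 of all 14084 genes rose and 52 fell.

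**Figure D4:**
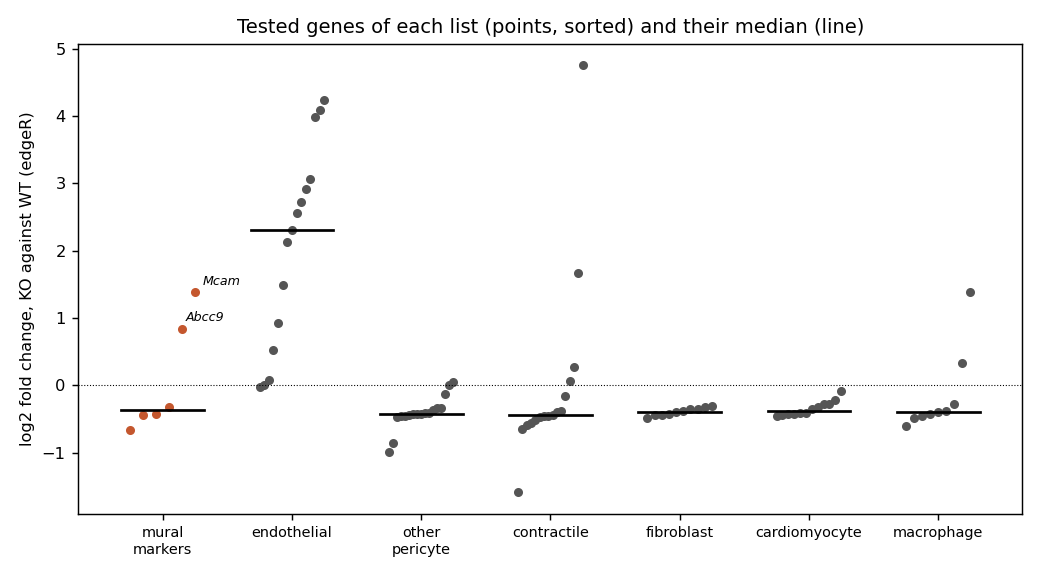
Log2 fold changes from edgeR (y axis) of the tested genes of 7 lists, sorted within the list, with the median as a line. The mural marker genes (orange) hold *Mcam* and *Abcc9* above 0 and 4 genes below it, the endothelial genes have a median of 2.31, and the medians of the pericyte, contractile, fibroblast, cardiomyocyte and macrophage lists lie between -0.45 and -0.38.

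The genes with the most similar log2 CPM were *Ahsa1* for *Rgs5*, *Spcs3* for *Cspg4*, *Rps19* for *Des* and *Map7* for *Ndufa4l2*. Pearson's r across the 6 libraries was 0.9978 or more for all 6 tested members. Between 173 and 1354 of 14078 other genes exceeded an r of 0.95 with a member, and these matches are a description only. The 6 libraries share 2 labels, and no p is given.

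RefSeq promoter windows were matched for 6 of the 8 genes, all but *Higd1b* and *Ndufa4l2*. TGGGAA, on either strand, was in 2 of the 6 windows, those of *Kcnj8* and *Abcc9*, and in 25.6% of all 32851 windows of 300 bases. ACGTG, the core of the hypoxia response element, TGTTTAC of forkhead factors, and the CArG box of serum response factor were in 0 of the 6 windows and in 19.6%, 3.65% and 1.63% of all windows. No matched letters overlapped another motif. A match or its absence concerns only these letters in these windows.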

How the data were processed

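RNA-seq libraries of cardiac fibroblasts, 3 labelled KO and 3 labelled WT, were analysed. The authors prepared stranded, oligo(dT)-enriched libraries and aligned reads with HISAT2 (default settings, mm10), and the submitters' processing notes also name GRCm38.p4 and edgeR. The deposited counts are whole numbers per gene without normalization, and the deposited FPKM values are these counts per gene length and library total. The counting tool, annotation and strand setting are not given in the sources used here.

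The quasi-likelihood test of edgeR 4.0.16 (R 4.3.3) was run on the counts after filterByExpr and TMM scaling, without covariates, and p-values were adjusted by Benjamini-Hochberg over the 14084 genes that passed. Gene models were compared with GENCODE M21. Single values were compared with exact permutation tests over 20 splits. The edgeR and DESeq2 fits were tested on simulated data. Alternatives included DESeq2 1.42.0 and limma 3.58.1. Pairs of libraries of a label differed by more than counting noise (22.4% to 31.7% of genes at p under 0.05 by chi-square), so each library was counted once, which does not show that they are separate animals. Figures were drawn with matplotlib 3.10.9.

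The members and lists were chosen with earlier results of these data known. Named were the members, all tested relatives, the largest rise and fall past the threshold in every other list, the genes of the ratios, *Kdm5b*, and the tested gene most like each member, with exceptions stated. *Higd1b* gave no ratio to *Higd1a*, since its count was 0. Floors allow for counting error only.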

Additional observations from a re-analysis of the deposited data

How the results depend on the processing

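The count of genes called, 4248 with 2488 higher and 1760 lower, was 8432 (8380 higher, 52 lower) when libraries were scaled on cardiomyocyte and macrophage markers, a scaling known from earlier results that moves all genes up by 0.39, and 882 (844 higher, 38 lower) with a fold change above 2 in addition. Leaving out each library gave 1131 to 1614 genes lower, the fewest without KO replicate 3. Of the members, 2 were called higher and 2 lower. With DESeq2 and with the added fold limit 1 was called higher (*Mcam*). The members called lower were 0 with marker scaling and with the added fold limit, and 1 to 2 when each library was left out, where *Cspg4* was lost without WT replicate 2. *Rgs5* passed with upper quartile normalization (adjusted p = 0.0473) and turned to a log2 fold change of 0.068 with marker scaling. *Mcam* passed under all 15 alternatives, *Abcc9* and *Des* under 14, *Cspg4* under 13, and *Ndufa4l2* under none (adjusted p from 0.0641 to 0.403). On log2(FPKM + 1) *Abcc9* stood at 0.17, since the added 1 exceeds its level. The causes of the other shifts were not tested. The order of levels was the same in TPM, and the ratios kept their direction with FPKM, where that of *Kcnj8* to *Abcc9* was -1.22 in place of -2.68. The ratios of *Rgs5* to *Rgs4* and of *Cspg4* to *Pdgfrb*, both near 0, changed sign when single libraries were left out.

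Libraries with the same replicate number did not deviate together (correlations of 0.00, 0.00 and 0.04), so no sign of pairing by number was seen. Correlations over all genes cannot exclude a pairing that touches few genes. With the replicate block 2 members were called higher and 2 lower, and 3907 genes were called. Depth limits *Kcnj8*, *Higd1b* and the log2 fold changes of genes with few counts, such as *Ndufa4l2*.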
